A study of Homo sapiens with 36 samples.

Results

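Cullin-RING ligases are modular ubiquitin ligases. A cullin holds a RING protein that recruits the charged ubiquitin-conjugating enzyme at one end, and an adaptor with an exchangeable substrate receptor at the other. FBXW7 is one such receptor: it is an F-box protein that docks on SKP1 and CUL1. Heterobifunctional degraders (PROTACs) borrow other receptors, most often VHL, which works with CUL2, or cereblon (CRBN), which works with CUL4A or CUL4B. The transcripts of 10 genes of this system were followed: the shared SCF parts SKP1, CUL1 and RBX1, the F-box receptors SKP2, BTRC and FBXW11, the degrader receptors VHL and CRBN, and their cullins CUL2 and CUL4A. They were chosen by name, as the parts that serve degraders or could stand beside FBXW7, with earlier results of these data known. They are 10 of the 62757 genes listed in the count tables.

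Gene expression was measured by RNA-seq in HCT-116 cells, a human colorectal carcinoma line, either WT or FBXW7-/- (KO). The 24 libraries used form 8 groups of 3. KO cells received control esiRNA (KO siCT), esiRNA against HDAC4 (KO siHDAC4) or the degrader #11 together with control esiRNA (KO #11) over 48 h. Cells of each kind were kept without drug or were given 50 µM oxaliplatin (OXPT) during the final 24 h. The remaining 2 groups are WT cells without and with OXPT. Untreated cells received the solvents. The degrader #11 joins a class IIa HDAC binder to a VHL ligand, so VHL, CUL2 and RBX1 are parts of the ligase it uses. Its dose is given as 1 µM in one label entry and as 10 µM in another. For the 6 WT libraries, the title names the control esiRNA and another entry the HDAC4 esiRNA, so the difference between KO siCT and WT cannot be told apart from a difference in esiRNA. The other 12 of the 36 libraries, all WT, carry opposite OXPT states in their labels and were not used. The labels do not say whether the libraries of a group came from separate cultures, and the study's methods speak of independent experiments for its figures in general without naming these libraries. The p-values therefore measure the spread between these libraries, which may be technical.

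Libraries held 10725966 to 20527222 gene counts (median 14510758). Of 7 epithelial markers, 6 had a median over 1 CPM (counts scaled to library size), with VIL1 at 0.481 CPM or below in every library, and the summed level of the list was 5135 to 21602 CPM. Of 8 markers of immune, stromal and endothelial cells, 1 did, COL1A1 with a median of 42.3 CPM, and the sum of that list was 27.7 to 78.8 CPM. HDAC4 averaged 19.1 ± 5.45 CPM in untreated KO siCT and 10.9 ± 3.48 in untreated KO siHDAC4 (SD, n = 3; adjusted p = 0.561, edgeR). The FBXW7 transcript averaged 16.9 ± 1.34 CPM in untreated KO siCT and 21.1 ± 3.60 in untreated WT (SD, n = 3), which differed by less than the test could call (adjusted p = 1.00, edgeR). Where the deletion lies in the gene was not examined, so these counts over the whole gene do not check the genotype.

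In 3 libraries several of these genes stood apart from all others: replicate 3 of KO siCT with OXPT, of untreated WT and of WT with OXPT. CUL2 was at 8.93, 9.38 and 8.77 CPM in them, against 14.9 to 47.8 CPM in the other 21. FBXW11 was at 22.3 to 33.9 CPM against 47.6 to 96.7, and CUL1 at 47.5 to 74.6 CPM against 84.4 to 147. RBX1 went the other way, with 135 to 238 CPM against 60.5 to 121. BTRC (12.8 to 19.7 CPM against 21.5 to 40.4) and SKP2 (8.26 to 9.38 CPM against 9.83 to 54.1) were also lowest there. The same libraries had 11.9% to 22.3% unmapped reads against 7.74% to 13.4%, and genes whose longest transcript is under 1500 bases took 21.6% to 33.3% of their gene counts against 14.4% to 23.2%. These libraries span both genotypes and both treatments, and the part of read or RNA quality in the levels was not tested. They were picked out after the values were seen. Every count below was also run with replicate 3 of all groups left out.

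Counts of the genes are not equally complete. SKP1 shares 1137 exonic bases with a second gene model on its strand, and reads that fall in 2 genes are not counted. SKP1 had a median of 73.5 counts per library in the unstranded column and 38 in the reverse-strand column. Its values are those of its unshared reads and not of the whole transcript. CRBN shares 35.6% of its exonic bases with TRNT1 on the opposite strand and had a median of 7.32 CPM with unstranded counting and 16.0 with reverse-strand counting. VHL shares 23.5% with an antisense RNA, with 75.9 and 114 CPM. The shared fraction was 11.1% for CUL1, 5.59% for CUL4A, 3.73% for CUL2, 2.10% for SKP2 and 0 for RBX1, BTRC and FBXW11. Forward and reverse totals were nearly equal (ratio 1.00 to 1.02), so reads of a gene and of its antisense partner cannot be told apart.

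The promoters of 8 of the genes, all but VHL and the F-box receptor BTRC, were found in RefSeq (GRCh38.p14). They were searched in 18 windows of 250 bases before and 50 after a start. SKP2 and FBXW11, a pair of F-box receptors, hold in that window the core of the element bound by the zinc finger factor ZNF143, searched on both strands as the 13 bases read from SKP2 with its bases 7 and 8 left free (ACTACANNTCCCA). It is in 1.36% of 35116 promoters of the same length, and was searched for after the SKP2 sequence had been read. The SKP2 match was therefore fixed beforehand, and bases 7 and 8 are those at which the FBXW11 match differs. The share thus does not measure how unusual these matches are. The 250 bases before each start are shown because SKP2 is the gene on which the OXPT comparison turns and FBXW11 is the other gene that shares the element, with the match in capitals. The SKP2 window is chr5:36151861-36152110 on the plus strand, and its match begins 73 bases before the start. The FBXW11 window is chr5:172006639-172006888 on the minus strand, with the match on the opposite strand from 56 bases before the start.
SKP2: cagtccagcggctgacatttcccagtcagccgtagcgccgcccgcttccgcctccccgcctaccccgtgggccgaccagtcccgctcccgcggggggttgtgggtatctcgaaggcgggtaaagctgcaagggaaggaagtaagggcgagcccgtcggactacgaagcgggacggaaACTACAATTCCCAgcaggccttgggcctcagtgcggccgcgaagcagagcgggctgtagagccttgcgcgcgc
FBXW11: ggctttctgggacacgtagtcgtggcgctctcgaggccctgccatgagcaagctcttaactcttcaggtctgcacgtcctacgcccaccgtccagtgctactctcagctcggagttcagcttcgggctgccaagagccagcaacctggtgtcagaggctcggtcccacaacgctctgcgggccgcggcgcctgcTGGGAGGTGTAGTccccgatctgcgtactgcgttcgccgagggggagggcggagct
Neither window holds the E2F letters TTTNNCGC, found in 6.89% of promoters, or the NF-Y box CCAAT, found in 34.6%. CUL4A had the E2F letters in 2 of its 4 windows and CUL1 the CCAAT letters in 2 of 5. These are matches of letters and say nothing of binding.

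All 10 genes passed the filter on low counts. In untreated KO siCT cells, the level per kb of the union of exons was highest for RBX1 (31.2 ± 3.96 CPM per kb; SD, n = 3) and CUL1 (25.9 ± 2.93), whose spreads overlapped. VHL (13.3 ± 1.56), CUL4A (10.9 ± 0.828) and FBXW11 (10.4 ± 1.18) followed, and CUL4A and FBXW11 did not differ beyond their spread. BTRC was at 3.86 ± 0.184 CPM per kb, CUL2 at 2.26 ± 0.779 and SKP2 at 1.89 ± 0.445. CRBN (0.894 ± 0.087) and SKP1 (0.515 ± 0.0647) were lowest, with the counting limits given above. Per kb of the longest transcript, CUL2 (6.98 ± 2.41) and SKP2 (4.40 ± 1.04) moved up past BTRC (4.20 ± 0.200), so this part of the order depends on the length used. On this scale the VHL receptor lies above CUL2, the cullin it works with, on both lengths.

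The genes differed in how much they varied. Across the 24 libraries SKP2 spanned 8.26 to 54.1 CPM, a 6.55-fold range, and CUL2 a 5.45-fold range, whereas CUL4A spanned 70.8 to 114 CPM, a 1.61-fold range. The group means of SKP2 differed up to 3.18-fold, from KO #11 with OXPT (12.0 CPM) to untreated KO siHDAC4 (38.2 CPM). Those of CUL4A differed up to 1.25-fold, from 79.2 CPM in untreated KO siHDAC4 to 99.1 CPM in KO siCT with OXPT. Ordered by mean, neighbouring groups overlapped in all 7 neighbour pairs for 8 genes. BTRC had 2 neighbour pairs and VHL 1 without overlap. These pairs were counted for the chosen genes only, so whether such numbers are usual among all genes was not tested.

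The question of the first comparison is what OXPT does to the transcripts of these ligases. Their protein amounts and assembly were not measured in these libraries. Of the 10 genes, 0 were called with OXPT in each of the 4 backgrounds, where a gene was called if edgeR's quasi-likelihood test across 12356 genes gave an adjusted p below 0.05 and it differed more than 1.5-fold. Over all genes, 11.3% were called in KO siCT, 12.0% in KO siHDAC4, 9.51% in KO #11 and 10.7% in WT. At an unadjusted p under 0.05 the number of the 10 was 2, 2, 0 and 1, beside 26.1%, 25.4%, 23.5% and 24.7% of all genes, and DESeq2 called 1, 1, 0 and 1 (SKP2), beside 15.0%, 15.2%, 12.6% and 13.9% of all genes. The libraries did not overlap for 3 of the 10 in KO siCT, where 30.1% of all genes did not, 2 in KO siHDAC4 (35.4%), 1 in KO #11 (42.5%) and 0 in WT (21.3%). The median log2 fold change of the 10 was -0.09, -0.06, -0.01 and -0.10, beside 0.01, 0.02, -0.00 and -0.06 over all genes.

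SKP2 was the gene with the lowest OXPT estimate in 3 of the 4 backgrounds. SKP2 (ENSG00000145604, chromosome 5, 36151989 to 36196849 on GRCh38, plus strand) is the F-box receptor that hands the CDK inhibitor p27 to the SCF ligase and is known to peak from S phase to G2. In KO siCT it was at 39.7, 34.2 and 24.5 CPM untreated and at 20.1, 9.83 and 8.81 with OXPT. All OXPT libraries lay below all untreated ones, and the log2 fold change was -1.34 (SE 0.45, 95% interval -2.28 to -0.39, adjusted p = 0.0607, edgeR). In KO siHDAC4 it was at 40.1, 45.6 and 28.9 CPM untreated and 20.4, 14.9 and 10.1 with OXPT. The groups again did not overlap, with a log2 fold change of -1.33 (SE 0.45, 95% interval -2.27 to -0.39, adjusted p = 0.0583, edgeR). In WT it was at 34.7, 54.1 and 9.38 CPM untreated and 16.6, 15.6 and 8.26 with OXPT. Here untreated replicate 3, one of the 3 libraries that stood apart, lay inside the OXPT range, and the log2 fold change was -1.28 (SE 0.45, 95% interval -2.22 to -0.34, adjusted p = 0.0744, edgeR).

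In all 4 backgrounds, libraries with the same replicate number deviated together across genes, so the fit with the replicate number as a block was read beside the first. With the replicate block SKP2 was called in KO siCT (log2 fold change -1.36, adjusted p = 0.0186, edgeR), in KO siHDAC4 (-1.36, adjusted p = 0.0172) and in WT (-1.21, adjusted p = 0.0354). The block called 15.7%, 16.7% and 15.3% of all genes in them and 13.9% in KO #11, where it called 0 of the 10. The SKP2 estimate stayed below zero under all 32 alternatives in KO siCT, KO siHDAC4 and WT. It was called in 8 of 32 for KO siCT, 10 of 32 for KO siHDAC4 and 5 of 32 for WT. Without replicate 3 of all groups the estimates were -1.29, -1.28 and -1.44 and each was called, where this setting called 17.4%, 18.0% and 20.9% of all genes. Leaving out untreated WT replicate 3 alone moved the WT estimate from -1.28 to -1.72 (adjusted p = 0.00421) and also gave calls in KO siCT and KO siHDAC4, which share the estimate of the spread.

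In KO #11 SKP2 was already low without OXPT. It was at 14.5, 13.3 and 11.7 CPM untreated and 9.96, 10.7 and 15.4 with OXPT, and these groups overlapped (log2 fold change -0.13, SE 0.45, 95% interval -1.07 to 0.80, adjusted p = 0.897, edgeR). The difference between this OXPT effect and that in KO siCT was 1.20 on the log2 scale (SE 0.64, 95% interval -0.12 to 2.53, adjusted p = 0.768), so the 2 effects were not shown to differ. The effects in KO siHDAC4 and WT lay close to that in KO siCT, with differences of 0.00 (95% interval -1.27 to 1.27) and -0.06 (95% interval -1.37 to 1.25; KO siCT minus WT). The 2 intervals allow differences of over 2-fold. Whether fewer cells that express SKP2 or less RNA per cell lie behind a lower level cannot be told apart in bulk RNA.

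VHL (ENSG00000134086, chromosome 3, 10141778 to 10153667, plus strand) had the second smallest p with OXPT in KO siCT and KO siHDAC4. In KO siHDAC4 it was at 52.9, 44.8 and 41.7 CPM untreated and 71.6, 60.8 and 64.6 with OXPT, without overlap. Its log2 fold change was 0.50 (SE 0.18, 95% interval 0.12 to 0.88, adjusted p = 0.0808, edgeR). With the replicate block it was 0.49 (adjusted p = 0.0338), past the p threshold but under the 1.5-fold limit. In KO siCT VHL was at 73.0, 57.8 and 68.3 CPM untreated and 90.8, 71.8 and 104 with OXPT, which overlapped (log2 fold change 0.42, adjusted p = 0.146, edgeR). The estimates were 0.22 in WT and 0.05 in KO #11, where VHL was at 71.7 to 98.9 CPM untreated and 80.3 to 98.7 with OXPT.

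The shared parts and the other receptors gave no call with OXPT. CUL1, the scaffold of SCF, had estimates of -0.17 to 0.10, and the 95% intervals lay within 2-fold in each background. CUL4A, the scaffold for CRBN, was at 78.6 to 91.6 CPM untreated and 94.4 to 102 with OXPT in KO siCT, without overlap, with a log2 fold change of 0.22 (95% interval -0.11 to 0.55). BTRC and FBXW11, paralogous receptors of phosphorylated beta-catenin and IkB, had estimates of -0.41 to -0.15 and -0.20 to -0.02. RBX1, the RING subunit shared by these cullins, had an estimate of 0.53 in KO siCT, where replicate 3 with OXPT was at 238 CPM and the other two at 77.5 and 102. Without replicate 3 of all groups its estimate there was -0.00. CUL2 had estimates of -0.39 to -0.23 with 95% intervals that all reached past a 2-fold fall (-1.35 to 0.89 in KO #11, the widest). Without replicate 3 of all groups its estimates were -0.19, -0.21, -0.23 and -0.27 in KO siCT, KO siHDAC4, KO #11 and WT, and were not called. CRBN lay between -0.10 and 0.40 and SKP1 between -0.09 and 0.15. The numbers of the 10 genes whose 95% interval lay inside a 2-fold change either way were 7, 8, 7 and 8 in KO siCT, KO siHDAC4, KO #11 and WT.

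**Figure D1:**
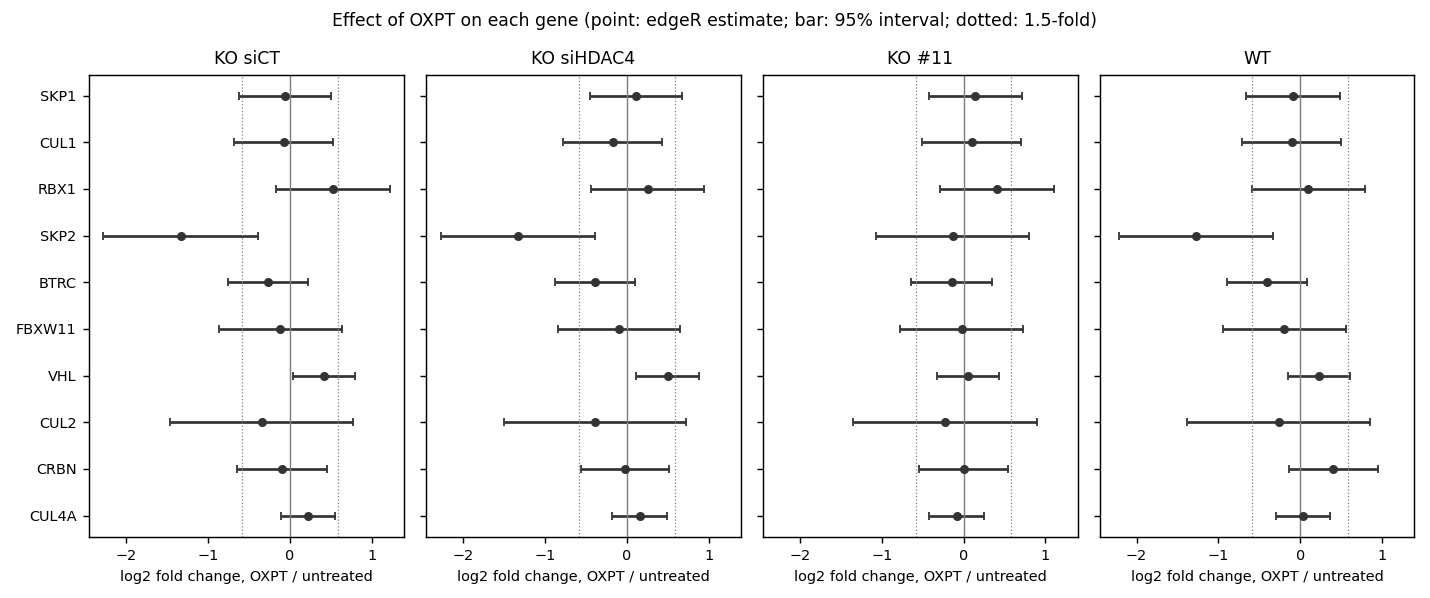
Log2 fold change of each gene with OXPT over untreated in the 4 backgrounds; points are edgeR estimates, bars 95% intervals and dotted lines a 1.5-fold change. SKP2 lies at -1.34, -1.33 and -1.28 in KO siCT, KO siHDAC4 and WT and at -0.13 in KO #11; the bars of the other genes lie mostly across zero.

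The next comparison asks what #11 does to the transcripts of the ligase it uses and of the others. Of the 10 genes, 0 were called with #11 in untreated KO cells and 0 in OXPT-treated KO cells, beside 0.51% and 0.121% of all genes. At an unadjusted p under 0.05 there were 1 and 0, beside 13.8% and 10.2% of all genes, and DESeq2 called 0 and 0, beside 3.31% and 1.02%. The libraries did not overlap for 2 of the 10 untreated (31.9% of all genes) and for 1 with OXPT (14.3%). VHL, which #11 engages, was at 71.7, 84.1 and 98.9 CPM with #11 and 73.0, 57.8 and 68.3 without, which overlapped, with an estimate of 0.35 (SE 0.18, 95% interval -0.02 to 0.73, adjusted p = 0.402, edgeR). With OXPT the estimate was -0.02 (95% interval -0.40 to 0.36). The interval with OXPT lies within 1.5-fold.

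SKP2 was lower in every untreated library with #11 (11.7 to 14.5 CPM) than in every one without it (24.5 to 39.7 CPM). Its log2 fold change was -1.32 (SE 0.45, 95% interval -2.26 to -0.38, adjusted p = 0.172, edgeR). SKP1 was also lower without overlap, at 4.38 to 5.40 CPM against 5.61 to 7.17, with an estimate of -0.40 (95% interval -0.96 to 0.16). CUL2 (ENSG00000108094, chromosome 10, 35008504 to 35127006, minus strand) was at 25.7, 19.3 and 24.2 CPM with #11 and 35.5, 42.4 and 20.3 without (log2 fold change -0.51, 95% interval -1.62 to 0.61, adjusted p = 0.75, edgeR). With OXPT, CUL2 was at 22.2, 17.3 and 19.5 CPM with #11 and 34.0, 34.0 and 8.93 without (-0.39, 95% interval -1.51 to 0.73). In both cases replicate 3 was the lowest of the 3 control libraries. Without replicate 3 of all groups, SKP2 (-1.40, adjusted p = 0.00585) and CUL2 (-0.79, adjusted p = 0.0214) were called in untreated cells and CUL2 (-0.82, adjusted p = 0.0228) with OXPT, where this setting called 14.5% and 11.5% of all genes. The differences between untreated and OXPT-treated cells in the effect of #11 gave 0 calls among the 10 and 0.0% over all genes (863 at an unadjusted p under 0.05; 30 by DESeq2).

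HDAC4 silencing gave 0 calls among the 10 untreated and 0 with OXPT, beside 0.00809% and 0.0% of all genes (394 and 380 genes at an unadjusted p under 0.05; 32 and 9 by DESeq2). Of the 10, 2 and 1 had an unadjusted p under 0.05. VHL was at 41.7 to 52.9 CPM with silencing and 57.8 to 73.0 without in untreated cells, and at 60.8 to 71.6 against 71.8 to 104 with OXPT. Neither pair of groups overlapped, with estimates of -0.51 (SE 0.18, adjusted p = 1.00, edgeR) and -0.43 (SE 0.18, 95% interval -0.81 to -0.06, adjusted p = 1.00, edgeR). BTRC was at 32.7 to 40.4 CPM with silencing and 24.6 to 26.9 without in untreated cells, also without overlap (log2 fold change 0.54, 95% interval 0.05 to 1.03, adjusted p = 1.00, edgeR). Groups did not overlap for 2 of the 10 genes untreated and 1 with OXPT, where 21.7% and 4.61% of all genes did not. The OXPT effects with and without silencing differed for 0 of the 10 and for 0.0% of all genes (19 at an unadjusted p under 0.05; 0 by DESeq2).

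KO siCT and WT differed for 0 of the 10 genes untreated and 0 with OXPT, beside 0.291% and 0.138% of all genes. At an unadjusted p under 0.05 there was 1 in each, SKP1 in both, beside 5.74% and 5.40% of all genes. SKP1 was at 5.61 to 7.17 CPM in untreated KO and 3.06 to 5.07 in untreated WT, the 1 gene of 10 without overlap (6.4% of all genes), with an estimate of 0.63 (SE 0.27, 95% interval 0.07 to 1.20, adjusted p = 0.746, edgeR). With OXPT 0 of the 10 were without overlap (6.39% of all genes), and the SKP1 estimate of 0.67 became 0.20 without replicate 3 of all groups. SKP2 differed by 0.00 (95% interval -0.92 to 0.92) untreated. The F-box receptors BTRC (-0.01, 95% interval -0.50 to 0.48) and FBXW11 (0.09, 95% interval -0.66 to 0.85) lay near zero, and these intervals allow a 1.39-fold and a 1.80-fold difference upward. The OXPT effects of KO siCT and WT differed for 0 of the 10 and 0.0% of all genes (201 at an unadjusted p under 0.05; 0 by DESeq2).

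**Figure D2:**
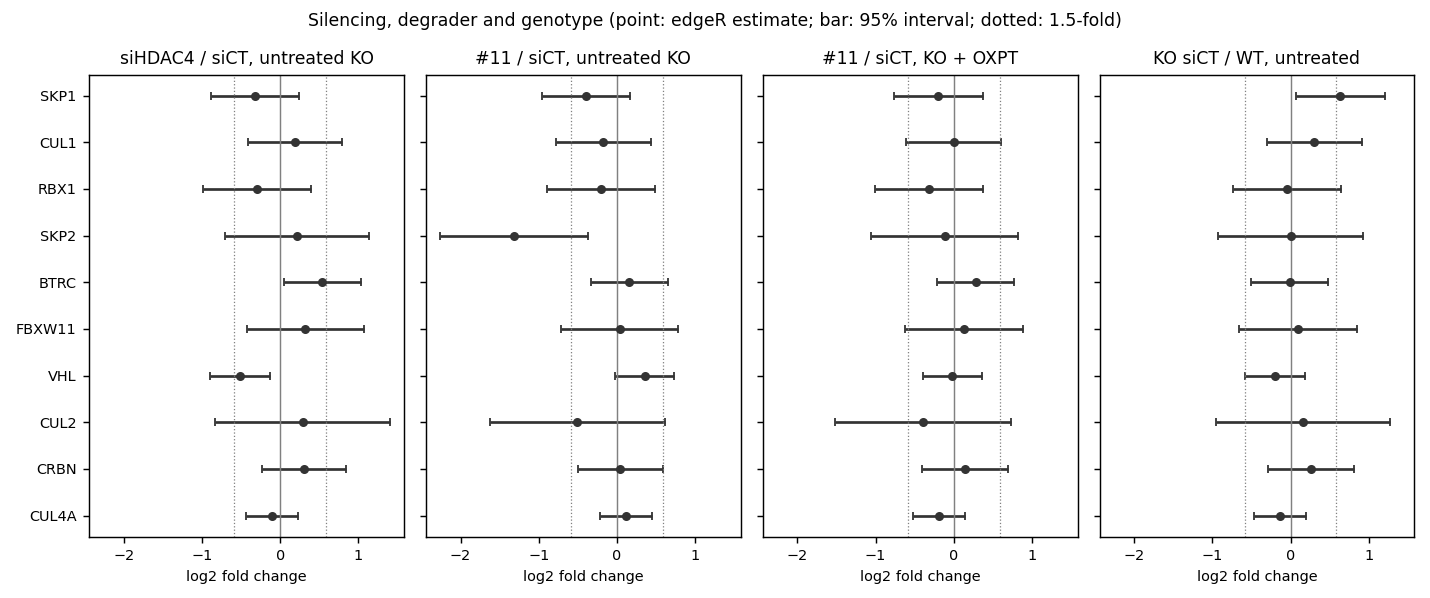
Log2 fold change of each gene for HDAC4 silencing, #11 (untreated and with OXPT) and genotype; points are edgeR estimates, bars 95% intervals and dotted lines a 1.5-fold change. SKP2 at -1.32 with #11 in untreated cells is farthest from zero, and VHL lies at -0.51 with silencing and 0.35 with #11.

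Other genes of the pathway were taken from 14 lists, of which 174 of 196 genes were tested. With OXPT 15, 17, 13 and 16 of them were called in KO siCT, KO siHDAC4, KO #11 and WT, which is 8.62%, 9.77%, 7.47% and 9.20% and near the share of all genes given above. The core machinery (other cullins and RING proteins, adaptors, the NEDD8 pathway and CAND proteins, the COP9 signalosome that removes NEDD8, and partner E2 and ARIH enzymes) held 37 tested genes. Of these, 1 was called in KO siCT and 0 in the other three. It was ELOB, the elongin B adaptor between CUL2 and VHL, at 533 ± 304 CPM with OXPT and 245 ± 9.62 without (SD, n = 3; log2 fold change 1.12, SE 0.35, adjusted p = 0.0432, edgeR). Its OXPT libraries were at 313, 406 and 879 CPM, and the highest is replicate 3, one of the 3 libraries that stood apart. The ELOB call held in 15 of 32 alternatives. Without replicate 3 of all groups ELOB was not called in KO siCT (0.59, adjusted p = 0.146), but other core genes were. The COP9 list then held 1 lower call in each of KO siCT, KO siHDAC4 and WT. The E2 and ARIH list held 1 higher in KO siCT and in KO siHDAC4, and 2 lower in KO #11. Adaptors held 1 higher in KO #11 and in WT, and the cullin and RING list 1 higher in KO #11. This setting called 17.4%, 18.0%, 22.8% and 20.9% of all genes in KO siCT, KO siHDAC4, KO #11 and WT.

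Of 53 other F-box proteins tested, 4 rose and 5 fell in KO siCT, 4 and 5 in KO siHDAC4, 5 and 2 in KO #11 and 4 and 4 in WT. FBXL17, which removes mismatched BTB dimers, fell in the 4 backgrounds (log2 fold changes of -2.10, -2.28, -2.07 and -2.25), from 8.32 ± 1.32 to 1.90 ± 0.411 CPM in KO siCT (SD, n = 3). FBXO22 rose by 1.26, 1.14, 1.28 and 1.27, from 51.7 ± 3.34 to 124 ± 3.51 CPM in KO siCT. FBXO5 (EMI1), an inhibitor of the anaphase-promoting complex, fell in KO siCT (-1.24), KO siHDAC4 (-1.27) and KO #11 (-1.35). FBXW7 itself rose in KO siCT, from 16.9 ± 1.34 to 42.6 ± 7.72 CPM (log2 fold change 1.33, adjusted p = 0.00747, edgeR), and by 1.09 in KO #11. Its estimates were 0.93 in KO siHDAC4 (adjusted p = 0.0519) and 0.51 in WT (adjusted p = 0.333), and the OXPT effects of KO siCT and WT were not shown to differ (adjusted p = 1.00, edgeR). FBXO44 rose in the 4 backgrounds (0.98, 0.92, 1.58 and 1.20). FBXO36 and FBXL16 fell in KO siCT, KO siHDAC4 and WT, by estimates of -1.42, -1.52 and -1.17 for FBXO36 and of -1.13 in KO siCT and -1.20 in WT for FBXL16.

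Among 22 other CUL4 receptors tested, DDB2, the sensor of UV-type DNA damage, rose in all 4 backgrounds, by 1.96, 1.65, 2.20 and 1.60 on the log2 scale, and WDTC1 fell by 0.83 in KO siHDAC4. Among 11 other CUL2 receptors, 0, 1, 2 and 0 rose: FEM1A by 1.28 in KO siHDAC4 and 1.34 in KO #11, and PRAME by 0.91 in KO #11. Of 10 ligases that other degraders recruit, MDM2 rose by 2.58, 2.25, 2.42 and 1.84, from 59.6 ± 13.6 to 355 ± 156 CPM in KO siCT. In WT its OXPT libraries were at 366, 353 and 54.5 CPM, against 57.3 to 91.5 untreated. The library at 54.5 CPM is replicate 3, one of the 3 that stood apart. Without replicate 3 of all groups the WT estimate was 2.29. RNF114 rose by 0.68, 0.59 and 0.70 in KO siCT, KO siHDAC4 and WT, although the call in KO siHDAC4 held in only 9 of 32 alternatives. XIAP fell by 0.92 in WT, from 41.6, 55.7 and 77.6 CPM to 38.3, 33.2 and 21.1, the last of each being replicate 3. Without replicate 3 of all groups XIAP was not called (-0.43, adjusted p = 0.0825, edgeR). RNF114 was then under the 1.5-fold limit in KO siCT (0.55) and KO siHDAC4 (0.45). Only 3 other ligases of the study's larger screen were listed, and they were not called in any of the 13 comparisons. CUL4B and CUL3 were not called either.

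Of 14 substrates and cofactors of SKP2, BTRC and FBXW11, CDKN1A (p21), whose protein SKP2 marks for destruction, rose by 3.18, 3.10, 2.55 and 2.55, from 338 ± 46.5 to 3058 ± 624 CPM in KO siCT. In untreated WT it was at 381, 288 and 1221 CPM, the last being replicate 3. Without replicate 3 of all groups the WT estimate was 3.23. FBXO5 fell as given above. WEE1, a kinase that BTRC targets, fell in KO siHDAC4 (-1.29) and WT (-1.19), and CDT1, a licensing factor that SKP2 recognises, fell by 0.86 in WT. Not called elsewhere, CDT1 also had lower means with OXPT in KO siCT (160 to 96.0 CPM), KO siHDAC4 (131 to 78.6) and KO #11 (145 to 108). Without replicate 3 of all groups, 4 of the 14 were called lower and 1 higher in each background, beside 17.4% to 22.8% of all genes. Of 8 neosubstrates of cereblon 4 passed the count filter, and ZNF692 rose in each background, by 0.71, 0.69, 0.84 and 0.84. Without replicate 3 of all groups ZNF692 was not called in KO siCT (0.62, adjusted p = 0.0789, edgeR) and was called in the other backgrounds. IKZF1 and IKZF3, the lymphoid targets of lenalidomide, were below the filter, with IKZF3 at 0.444 CPM or below in every library and IKZF1 at 0.0801 or below. With #11 in untreated cells, 1 of the 174 was called: CCNF (cyclin F), an F-box protein of G2, at 38.2 ± 6.04 CPM against 76.6 ± 5.68 (log2 fold change -1.01, SE 0.20, adjusted p = 0.039, edgeR), in 20 of 32 alternatives. Without replicate 3 of all groups, which called 14.5% of all genes, 5 other F-box proteins were lower and 2 higher. In that setting 4 other CUL4 receptors were lower, NEDD8 and CAND genes gave 2 lower and 1 higher, and substrates and cofactors 2 higher. COP9, other CUL2 receptors, ligases of other degraders and cereblon neosubstrates gave 1 lower each. HIF targets are given below.

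HIF transcription factors are the main substrates of VHL, so the transcripts of HIF targets were read beside it. Of 21 tested, 0 were called with #11 in untreated cells and 0 with OXPT. In untreated cells 18 of 21 estimates were below zero (50.4% of all genes), with a median of -0.80 beside -0.00 over all genes, and 8 had an unadjusted p under 0.05 (13.8% of all genes). With OXPT 18 of 21 were below zero (51.6% of all genes), with a median of -0.48 beside -0.01 over all genes. Here only 1 of the 21 had an unadjusted p under 0.05 (10.2% of all genes). The lowest estimates in untreated cells were those of ANGPTL4 (-2.34, adjusted p = 0.187, edgeR) and PFKFB4 (-1.86, adjusted p = 0.0956), and VEGFA was at 0.87 (adjusted p = 0.263). These 3 were named after their values were seen. Without replicate 3 of all groups 8 were called lower and 1 higher in untreated cells, where this setting called 14.5% of all genes, and 4 lower and 0 higher with OXPT, where it called 11.5%. Estimates below zero were not particular to #11, although its medians were the lowest. They made up 17 of 21 for OXPT in KO siCT (median -0.19) and 16 for silencing in untreated KO (-0.12). KO siCT against WT gave 15 untreated (-0.19) and 17 with OXPT (-0.35), and OXPT in WT 12 (-0.14). For OXPT in KO siHDAC4 and KO #11 and for silencing with OXPT, 8, 7 and 8 were below zero. With OXPT against untreated cells 0 HIF targets were called in any of the 4 backgrounds, and 0 of 6 HIF subunits and hydroxylases. Without replicate 3 of all groups, 5 HIF targets were called higher and 1 lower in KO #11. In KO siHDAC4 1 was then higher, in WT 1 was lower, and in KO siCT 0 were called. Of 7 HIF subunits and hydroxylases tested in that setting, 1 was called higher in KO siCT and 0 in the other backgrounds. The setting called 17.4%, 18.0%, 22.8% and 20.9% of all genes in KO siCT, KO siHDAC4, KO #11 and WT.

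The genes whose levels over the 24 libraries were most like each member are given as a description, since the libraries share treatments and depth. SKP2 was closest to C1orf112, LBR and DLGAP5 (Pearson r of log2 CPM 0.93, 0.93 and 0.93), of which DLGAP5 is a mitotic spindle gene. CUL2 was closest to LDAH, IPO7 and CCDC93 (0.98, 0.98 and 0.97), CUL1 to WASHC2A, ZNF326 and UBR2 (0.95, 0.95 and 0.94) and FBXW11 to TRAPPC11, NFATC3 and TNKS2 (0.95, 0.94 and 0.94). RBX1 was closest to TRIR, HOXC9 and MZT2A (0.95, 0.94 and 0.94), BTRC to SMC1A, LRRC8C and SLC39A9 (0.92, 0.90 and 0.89) and VHL to SLC49A4, HRH1 and QDPR (0.88, 0.88 and 0.87). CUL4A (FERMT1, USP12 and SSR1) had r of 0.82, 0.82 and 0.76, CRBN (CLPX, ACTR6 and COX11) 0.79, 0.78 and 0.78, and SKP1 (MTF2, KIF3A and PSIP1) 0.77, 0.77 and 0.76. Among themselves, CUL1, FBXW11 and CUL2 went together (r of 0.83 to 0.86), and RBX1 went against CUL2 (-0.83) and FBXW11 (-0.82), the genes that set the 3 libraries apart.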

How the data were processed

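PolyA RNA-seq libraries of HCT-116 cells were deposited by the authors as 1 table of raw counts per gene and library, without normalization, with unstranded, forward-strand and reverse-strand columns. The submitters' processing notes name Trimmomatic 0.39, STAR 2.7.11a and hg38; the study's methods instead describe transcript quantification with salmon on an Ensembl transcriptome, which is not what these tables of whole counts with strand columns hold. Not given in the sources used here were the counting settings and gene models behind the tables. The unstranded column was used, since both strand columns held nearly equal totals. Rows of unmapped, multimapping, featureless and ambiguous reads (medians of 9.29%, 3.54%, 4.25% and 11.2% of reads) were left out. Identifiers were matched to GENCODE 44: 62130 of 62757 with their version and 62686 without it.

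Groups were taken from the labels. Genes were kept where some group averaged 64 or more raw counts (12356) and tested in R 4.3.3 with edgeR 4.0.16 (TMM, quasi-likelihood F test, 24 libraries, 1 coefficient per group). A gene was called in one of 13 comparisons at an adjusted p below 0.05 (Benjamini-Hochberg, over the 12356 genes) and a difference of more than 1.5-fold. Standard errors are approximate (the estimate divided by the root of its F statistic). Levels are TMM-scaled CPM. Correlations used log2 CPM with a prior count of 2. Intervals come from the model and the depth given in the report limits low genes most. The fitting script was tested on simulated data.

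Libraries with the same replicate number were taken as paired where the correlations of their deviations from the group means were all over 0.1, which held in 8 of 10 comparisons of 2 groups (0.113 to 0.788) and not for #11 against siCT (-0.252 to 0.128). Alternatives were the reverse-strand column, DESeq2 1.42.0, RLE size factors, other count filters, a fit of only the groups compared, the replicate block and leaving out libraries. The members and the gene lists were chosen with earlier results of these data known. All members were named in every comparison; of each list, up to 4 called genes with the largest change; FBXW7 and HDAC4 as targets; and per member the 3 genes with the highest correlation. The 12 libraries with conflicting OXPT labels were not used.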

Additional observations from a re-analysis of the deposited data

How the results depend on the processing

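In the fits as reported 0 of the 10 genes were called in each of the 13 comparisons, and in 8 comparisons this count was 0 under all 32 alternatives. With DESeq2, without a count filter and with the replicate block, 1 gene was called with OXPT in KO siCT, in KO siHDAC4 and in WT, SKP2 each time. With only the groups compared, 1 was called with OXPT in KO siHDAC4 and 1 with #11 in untreated KO, and without a count filter 1 with #11 in untreated KO, again SKP2. Leaving out libraries gave 0 to 1 calls for OXPT in KO siCT, KO siHDAC4 and WT, 0 to 2 for #11 in untreated KO and 0 to 1 for #11 in OXPT-treated KO. Single libraries that brought a SKP2 call with OXPT when left out were untreated WT replicate 3 (KO siCT, KO siHDAC4, WT), untreated WT replicate 2, WT with OXPT replicate 3 and KO siCT with OXPT replicate 1 (KO siCT and KO siHDAC4), and KO siHDAC4 with OXPT replicate 1 (KO siHDAC4). Leaving out untreated WT replicate 3 also gave a SKP2 call with #11 in untreated KO (log2 fold change -1.32, adjusted p = 0.0462, edgeR). The reverse-strand column, RLE size factors and a filter in every group gave 0 calls. The replicate block changed no other call of a member. For #11 against siCT the replicate numbers did not pair the libraries, and the block called 2 HIF targets lower and 1 higher in untreated cells. With it, calls over all genes rose from 63 to 397 for #11 in untreated KO, from 15 to 132 for #11 with OXPT and from 36 to 75 for KO against WT untreated, and without replicate 3 of all groups from 63 to 1816 and from 15 to 1438 for the 2 comparisons of #11. The SKP2 estimates ranged from -1.83 to -1.13 for OXPT in KO siCT, -1.60 to -1.12 in KO siHDAC4, -1.72 to -0.73 in WT and -1.49 to -1.05 for #11 in untreated KO. Of the 124 differences of members that no alternative called, 69 changed sign in at least 1 alternative, so no direction is claimed for them. The causes were not tested. At the depth of these libraries SKP1 and CRBN had the fewest counts of the 10 (medians of 73.5 and 116.5 per library).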
